A study of Mus musculus with 6 samples.

Results

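The Oas and Ifit families are interferon-induced antiviral genes, and 10 of them were followed here in mouse kidney fibroblasts cultured with and without Th17 cells. The members were taken by gene symbol from the deposited expression table, which held 1 row for each of the 10 among 34745 genes. They were Oas1a, Oas1g, Oas2, Oas3, Oasl1, Oasl2, Ifit1, Ifit2, Ifit3 and Ifit3b. The RNA came from primary mouse renal fibroblasts of wild-type genotype, the matrix-producing cells grown in fibroblast medium from kidney digested with trypsin and collagenase. The first group held 3 libraries of fibroblasts cultured alone. The second held 3 libraries of fibroblasts kept for 24 h under a 0.4 µm transwell insert containing Th17 cells, the helper T cells that make interleukin-17, and only the fibroblasts of the lower chamber were collected. Per the study's methods the Th17 cells were induced from spleen CD4+ T cells with stimulating antibodies, cytokines and an antibody that neutralises interferon-γ. The study's methods name Balb/c as its mouse strain, without saying that these fibroblasts came from it. The age of the animals, and whether each library was a culture of its own, were not given in the sources used here, so p-values measure the spread between these libraries.

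Interferons bind receptors on the cell surface, and kinases of the Jak family then activate transcription factors. Stat2 and Irf9 belong to a complex that binds the interferon-stimulated response element in the promoters of responsive genes. Oas enzymes make 2′-5′-linked oligoadenylates when they bind double-stranded RNA, which act as second messengers against viral RNA. Ifit proteins lack enzyme activity and bind viral RNA ends or translation initiation factors. Fibroblasts are known to respond to interferon with expression of both families.

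Total counts per library lay between 12050529 and 13209581, and a floor of 3 counts equalled 0.223 to 0.254 CPM (counts scaled by TMM to a common library total). Of 12 fibroblast markers all 12 were detected well enough to test, with summed levels of 39507 to 41184 CPM alone and 16313 to 18641 CPM with Th17 cells. The collagen chains Col1a1 and Col1a2 made up most of these sums (means of 15072 and 12462 CPM alone). Col1a1, a collagen chain that defines fibroblasts, had 168972 to 202700 counts alone and 74446 to 87428 with Th17 cells. Of 15 T cell markers, Cd3d, Cd8a, Cd2, Il17a, Il17f and Ccr6 were at 0 counts in all 6 libraries, and Cd3e and Cd4 had at most 6. Trac, Lck and Cd28 had counts in every library (20, 40 and 38 alone and 41, 27 and 38 with Th17 cells for Trac, 23 to 68 for Lck and 3 to 15 for Cd28). The summed T cell markers were at 7.99 to 9.32 CPM alone and 5.03 to 6.02 CPM with Th17 cells.

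To examine how both families responded, each gene was compared between the groups. All 8 members with counts fell with Th17 cells, to between 8.97% (Ifit3b) and 39.3% (Oasl2) of their level alone. Summed over the members, the level was 3015 to 3091 CPM in the 3 lone libraries and 600 to 694 CPM in the 3 cocultured libraries. The members' share of all counts was 0.298% ± 0.00394 alone and 0.0674% ± 0.00563 with Th17 cells (mean ± SD, n = 3 each). Oas1a and Oas1g had no counts in any library.

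The threshold was an adjusted p below 0.05 (edgeR's quasi-likelihood test) together with a more than 2-fold difference. Of 13088 genes tested, 11.6% were past it in either direction and 7.78% were past it and lower. Among the members, 8 of 10 were tested and 8 of 8 were past it and lower. An adjusted p below 0.05 with a lower level was found for 20.0% of all genes tested, and 26.1% of all genes tested were lower with no overlap between the groups, as were all 8 tested members. The median log2 fold change (with Th17 cells minus alone) was −2.80 over the 8 members, −2.45 over the 4 Oas members and −2.80 over the 4 Ifit members. Over all genes tested it was 0.0038. In bulk RNA, fewer cells that express a gene and less RNA of it per cell cannot be told apart.

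**Figure D1:**
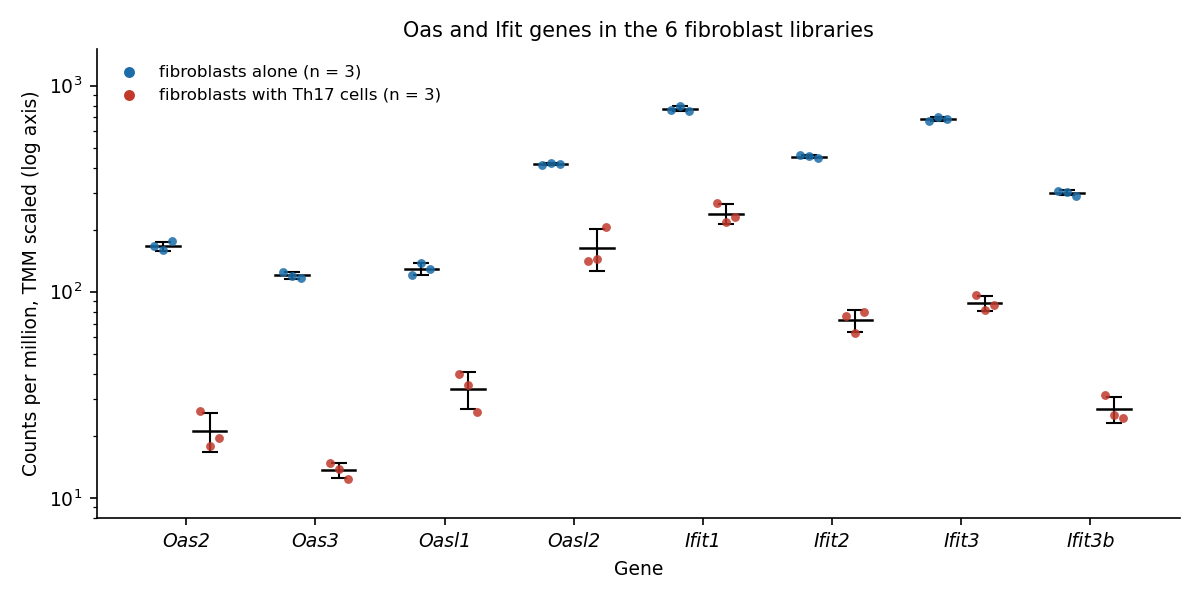
TMM-scaled CPM (log axis) of the 8 detected members, 1 dot per library (blue, fibroblasts alone; red, with Th17 cells); bars give mean ± SD of 3 libraries. For every gene the 3 cocultured libraries sit below the 3 lone libraries, with the widest cocultured spread for Oasl2 (141 to 206 CPM).

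Among the 2′-5′-oligoadenylate synthetases, Oas2 (ENSMUSG00000032690, GRCm38 chromosome 5, 120730333 to 120749853, minus strand) had 2137, 2010 and 2075 counts alone and 355, 226 and 256 with Th17 cells. All cocultured libraries lay far below the lone ones, and the first cocultured library was the highest of its group. The level decreased from 167 ± 8.35 to 21.2 ± 4.57 CPM (mean ± SD, n = 3 each; log2 difference −2.97 with SE 0.14, edgeR adjusted p = 3.61e-07). On the opposite strand 1273 bases of Oas2 overlap Gm43068, a gene that the annotation lists as still to be verified, and the sources do not say whether counting was stranded.

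Oas3 (ENSMUSG00000032661, chromosome 5, 120753098 to 120777661, minus strand), the largest synthetase of the family, had 1614, 1508 and 1374 counts alone and 198, 175 and 163 with Th17 cells. Its groups were far apart and tight, with a coefficient of variation of 8.56% in the cocultured group. Its level went from 120 ± 4.64 to 13.6 ± 1.17 CPM (n = 3 each; log2 difference −3.14 with SE 0.087, edgeR adjusted p = 3.72e-08), an 8.82-fold difference.

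Oas1a (ENSMUSG00000052776, chromosome 5, 120896256 to 120907521) and Oas1g (ENSMUSG00000066861, chromosome 5, 120876142 to 120887613) encode small synthetases of the Oas1 group. Each had 0 counts in all 6 libraries, which allows up to 3 counts, or 0.223 to 0.254 CPM, per library as counting error only. These genes are near-identical in part, since 40.9% of the 100-base windows of Oas1a transcripts also occur in another gene, all in Oas1g, and 31.2% of those of Oas1g occur in Oas1a. How the counting treated reads that fit both genes was not stated, and its part in the zeros was not tested. Ifit3 and Ifit3b share a somewhat smaller part, 31.7% of Ifit3 windows and 27.4% of Ifit3b windows. No fold change is given for Oas1a and Oas1g.

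The Oasl genes encode proteins with a synthetase-like part joined to ubiquitin-like domains. Oasl1 (ENSMUSG00000041827, chromosome 5, 114923240 to 114937915, plus strand), known as an inhibitor of Irf7 translation, had 1555, 1748 and 1525 counts alone and 534, 451 and 344 with Th17 cells. The groups did not overlap, and the third cocultured library was the lowest. This was a decrease from 129 ± 8.71 to 33.8 ± 6.92 CPM (n = 3 each; log2 difference −1.94 with SE 0.14, edgeR adjusted p = 6.51e-06).

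Oasl2 (ENSMUSG00000029561, chromosome 5, 114896936 to 114912234, plus strand), which unlike Oasl1 has synthetase activity, had 5315, 5304 and 4920 counts alone and 1893, 1830 and 2709 with Th17 cells. The third cocultured library stood above the other cocultured libraries for Oasl2 while it was the lowest for Oasl1. The level decreased from 416 ± 3.26 to 164 ± 36.9 CPM (n = 3 each; log2 difference −1.35 with SE 0.13, edgeR adjusted p = 5.64e-05). Its spread changed from a coefficient of variation of 0.783% alone to 22.6% with Th17 cells.

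The Ifit genes lie side by side on chromosome 19. Ifit1 (ENSMUSG00000034459, 34640871 to 34650009, plus strand), which binds capped RNA that lacks 2′-O-methylation, had 9836, 10075 and 8916 counts alone and 3617, 2788 and 3022 with Th17 cells. It was the member with most counts in every library, and its groups did not overlap. That is a decrease from 771 ± 22.1 to 239 ± 26.3 CPM (n = 3 each; log2 difference −1.69 with SE 0.081, edgeR adjusted p = 5.05e-07).

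Ifit2 (ENSMUSG00000045932, 34550694 to 34576419, plus strand), a partner of the other Ifit proteins in RNA-binding complexes, had 5906, 5763 and 5249 counts alone and 1022, 800 and 1049 with Th17 cells. The mean level went from 452 ± 7.68 to 72.9 ± 8.90 CPM (n = 3 each; log2 difference −2.63 with SE 0.091, edgeR adjusted p = 8.03e-08). The groups did not overlap, and the second cocultured library was the lowest of the 6.

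Ifit3 (ENSMUSG00000074896, 34583531 to 34588731, plus strand), whose human counterpart is known to bind and stabilise IFIT1, had 8627, 8866 and 8145 counts alone and 1291, 1043 and 1127 with Th17 cells, so the groups did not overlap. The level decreased from 686 ± 15.6 to 87.9 ± 7.27 CPM (n = 3 each; log2 difference −2.96 with SE 0.073, edgeR adjusted p = 2.10e-08). Ifit3b (ENSMUSG00000062488, 34607970 to 34613401, plus strand), its near-identical copy, had 3971, 3861 and 3459 counts alone and 424, 323 and 319 with Th17 cells. Its level decreased from 302 ± 8.32 to 27.1 ± 3.91 CPM (n = 3 each; log2 difference −3.48 with SE 0.10, edgeR adjusted p = 4.06e-08), an 11.1-fold difference and the largest among the members. Because of the shared windows, counts of this pair are uncertain where they were divided between the genes. With the counts of the pair summed before the fit, the pair had a log2 fold change of −3.10. The members' median was then −2.63, which is the value of Ifit2, the middle gene of those that remained.

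The size of the decrease differed among the members. From the lowest log2 fold change upward the order was Ifit3b, Oas3, Oas2, Ifit3, Ifit2, Oasl1, Ifit1 and Oasl2, which ranked from 128th (Ifit3b) to 690th (Oasl2) of the 13088 genes tested. Neighbours in this order lay within 2 combined standard errors of each other for Oas3 and Oas2 (0.17 apart, combined SE 0.16), Oas2 and Ifit3 (0.0079 apart, combined SE 0.15) and Oasl1 and Ifit1 (0.25 apart, combined SE 0.16). The other 4 neighbouring pairs were farther apart than that, by 0.33 to 0.70. Each family therefore had members at both ends of the order, and the difference between the Oas and the Ifit genes as groups was not tested.

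**Figure D2:**
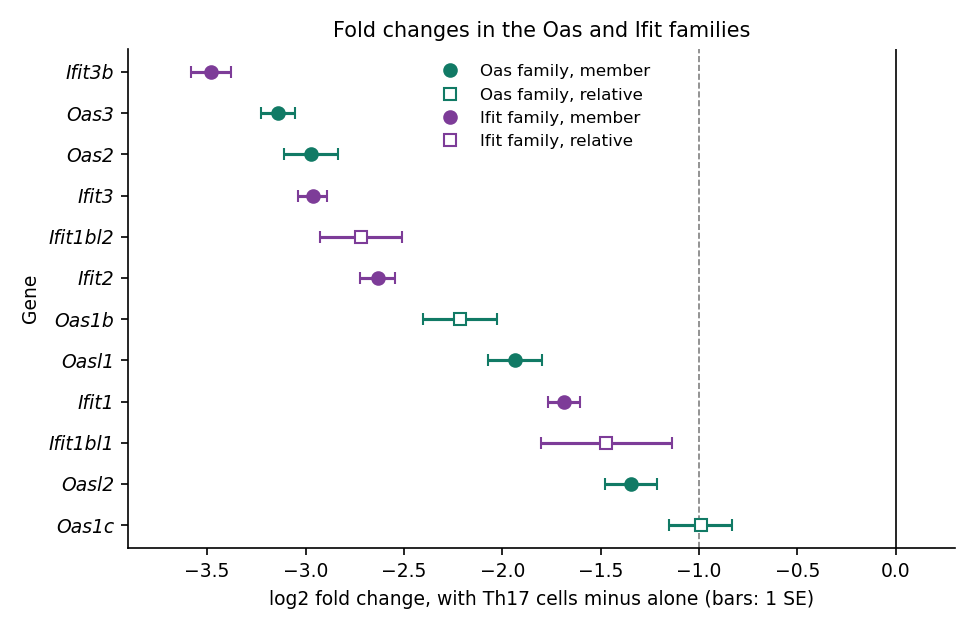
Log2 fold change (with Th17 cells minus alone, horizontal axis, bars 1 SE) of the 8 tested members (filled circles) and 4 tested relatives (open squares); green marks the Oas and purple the Ifit family, and the dashed line is a 2-fold decrease. Values run from −3.48 for Ifit3b to −1.35 for Oasl2 among members, and Oas1c at −0.99 is the gene on the other side of the dashed line.

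Levels of different genes were compared per length, on the deposited FPKM scale. In lone fibroblasts Ifit3 was the highest at 385 ± 9.34 FPKM (mean ± SD, n = 3), which ranked 77th of all 34745 genes. It was followed by Ifit1 at 284 ± 7.83, Ifit3b at 148 ± 3.62, Ifit2 at 101 ± 1.41 and Oasl2 at 37.9 ± 0.359 FPKM. Oasl1 was at 22.6 ± 1.54, Oas2 at 19.9 ± 1.04 and Oas3 at 14.0 ± 0.4996 FPKM. No neighbours in this order overlapped between libraries, and each Ifit gene lay above each Oas gene.

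With Th17 cells the order of levels changed. Ifit1 was the highest at 92.1 ± 10.3 FPKM and ranked 396th, and Ifit3 followed at 51.5 ± 4.36 FPKM with rank 748. Ifit2 at 17.1 ± 2.18, Oasl2 at 15.6 ± 3.61 and Ifit3b at 13.8 ± 1.99 FPKM came next, and the libraries overlapped between Ifit2 and Oasl2 and between Oasl2 and Ifit3b. Oasl1 at 6.16 ± 1.24, Oas2 at 2.64 ± 0.573 and Oas3 at 1.66 ± 0.137 FPKM kept the last places.

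**Figure D3:**
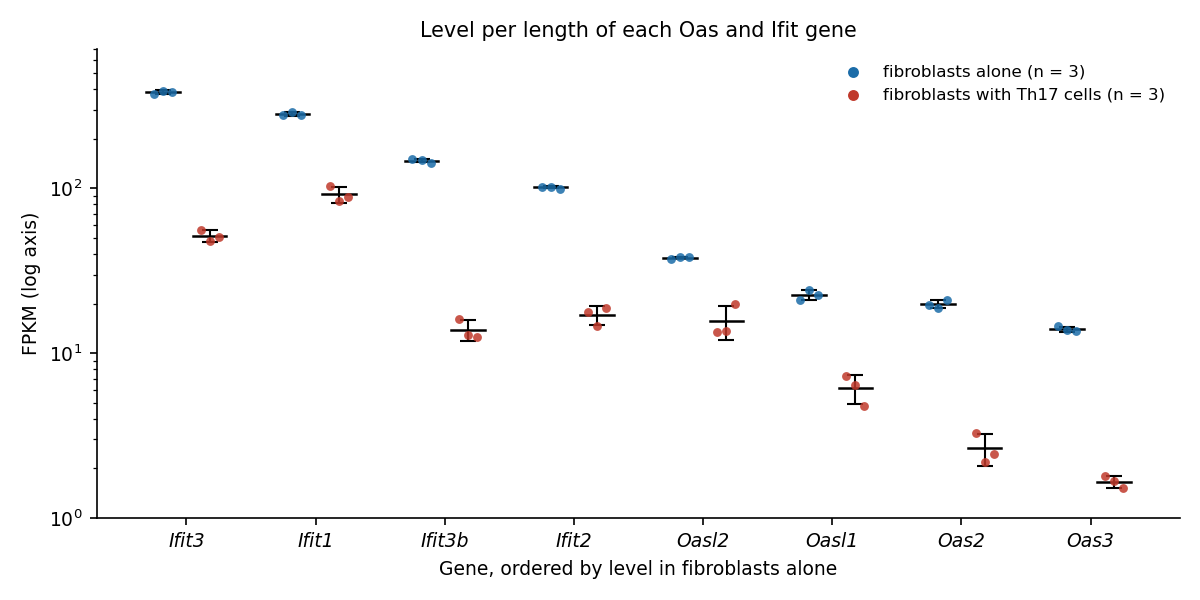
FPKM (log axis) of the 8 detected members, ordered by their level in fibroblasts alone, 1 dot per library with mean ± SD of 3 libraries. Ifit3 leads in lone fibroblasts (385 FPKM) and Ifit1 with Th17 cells (92.1 FPKM), while Oas3 is lowest in both groups (14.0 and 1.66 FPKM).

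Ratios of FPKM within a library show the same change of order and do not depend on scaling between libraries. Ifit1 over Ifit3 was 0.749, 0.747 and 0.719 alone and 1.84, 1.76 and 1.76 with Th17 cells, so the level of Ifit1 passed that of Ifit3 in all 3 cocultured libraries. Ifit3 over Ifit3b was 2.49 to 2.70 alone and 3.49 to 4.05 with Th17 cells, again without overlap. Oasl2 over Oas3 was 2.58 to 2.80 alone and 7.48 to 13.01 with Th17 cells, and Ifit2 over Ifit1 was 0.348 to 0.365 alone and 0.172 to 0.211 with Th17 cells. For Oas2 over Oas3 the groups overlapped (1.35 to 1.54 alone, 1.32 to 1.83 with Th17 cells). Oasl2 over Oasl1 was 1.58 to 1.79 alone and 1.85, 2.12 and 4.11 with Th17 cells, where the third cocultured library gave the value farthest from the others. These 6 pairs were chosen after the values had been seen and carry no test.

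The relatives of the members in both families were mostly at low counts. Oas1b, listed by the annotation as a polymorphic pseudogene, had 288, 262 and 220 counts alone and 47, 50 and 77 with Th17 cells and fell (log2 fold change −2.21 with SE 0.19, edgeR adjusted p = 2.07e-05). Oas1c had 120, 114 and 114 counts alone and 62, 70 and 52 with Th17 cells (log2 fold change −0.99 with SE 0.16, edgeR adjusted p = 0.00119), which missed the fold limit. It was past the threshold without lone replicate 2 (−1.01) and without cocultured replicate 2 (−1.12). Oas1d, Oas1e, Oas1f and Oas1h were at 0 counts in all libraries. Oas1c overlaps the antisense gene Gm43069 over 5430 bases. Ifit1bl2 had 184, 197 and 179 counts alone and 20, 37 and 32 with Th17 cells (log2 fold change −2.72 with SE 0.21, edgeR adjusted p = 1.05e-05). Ifit1bl1 had 19, 31 and 32 counts alone and 11, 11 and 9 with Th17 cells (log2 fold change −1.47 with SE 0.33, edgeR adjusted p = 0.00748), so both Ifit1-like genes fell and the second rests on low counts. Limma on log2(FPKM + 1) gave −0.33 for Ifit1bl1, which was then not past the threshold.

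Because the 8 detected members fell together, the promoters of all members were searched for the letters of the interferon-stimulated response element. RefSeq promoter windows on GRCm38.p6, from 250 bases before to 50 after each start, were at hand for 9 members. The core searched was GAAANNGAAA on either strand, where N is any base. It occurred in the windows of 6 of the 9 members and of 3.99% of all 27025 genes with a window, or 3.44% of 32851 windows. The 6 include Oas1a and Oas1g, which had no counts in any library. They also include pairs with partly identical windows (Ifit3 with Ifit3b, Oas1a with Oas1g), so they are not 6 separate sequences. The stretches below show these matches upstream of the start, written 5′ to 3′ on the strand of the gene, with each core match in capitals (on the opposite strand it reads TTTCNNTTTC).
Ifit1, chr19:34640764-34640834, plus strand: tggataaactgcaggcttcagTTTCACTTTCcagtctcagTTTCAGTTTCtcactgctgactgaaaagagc
Ifit3, chr19:34583352-34583437, plus strand: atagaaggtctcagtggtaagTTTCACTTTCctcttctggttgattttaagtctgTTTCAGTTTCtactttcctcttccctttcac
Ifit3b, chr19:34607748-34607833, plus strand: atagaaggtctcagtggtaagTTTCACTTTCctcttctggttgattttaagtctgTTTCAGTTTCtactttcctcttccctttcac
Oas3, chr5:120777704-120777755, minus strand: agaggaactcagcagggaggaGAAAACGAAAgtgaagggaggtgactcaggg
Oas1a, chr5:120907530-120907566, minus strand: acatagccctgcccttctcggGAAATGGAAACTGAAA
Oas1g, chr5:120887616-120887652, minus strand: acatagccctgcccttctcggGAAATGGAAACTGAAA

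Counted from the start, the cores lay at −104 and −85 in Ifit1, at −156 and −122 in Ifit3, at −188 and −154 in Ifit3b and at −75 in Oas3. In Oas1a and Oas1g, the members without counts, 2 overlapping cores lay at −20 and −14 and at −18 and −12. The printed stretches of Ifit3 and Ifit3b are the same in every base and belong to an identical run of 169 bases, and those of Oas1a and Oas1g to an identical run of 73 bases. Oasl1, Oasl2 and Ifit2 held no exact core in these windows, and all 3 fell.

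With 1 mismatch allowed the core occurred in the windows of all 9 members, and of 38.9% of all genes. The stricter GAAANNGAAACT occurred in 5 members (Ifit1, Ifit3, Ifit3b, Oas1a and Oas1g) and in 0.303% of all genes. A gap of 1 to 3 bases in place of 2 gave 6 members and 9.91% of all genes. Each of these sets includes Oas1a and Oas1g, the members without counts. The gamma-activated sequence TTCNNNGAA, a second class of interferon-responsive element, occurred in 2 of the 9 members (Ifit2 and Oas1a) and in 9.55% of all genes. Such a match describes the letters and is not a measured binding site.

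Ifit1 and Ifit1bl2 start 146 bases apart on opposite strands, and both cores of the Ifit1 stretch lie in the windows of both genes. Their decreases differed, with log2 fold changes of −1.69 for Ifit1 and −2.72 for Ifit1bl2, 1.03 apart (combined SE 0.22). Ifit1 and Ifit1bl2 share few 100-base windows, 3.29% of those of Ifit1.

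To see whether the decrease followed chromosome position, the protein-coding genes within 200 kb of each cluster were examined. The Oasl cluster spans 114896936 to 114937915 of chromosome 5, the Oas cluster 120730333 to 120907521 of chromosome 5 and the Ifit cluster 34550694 to 34650009 of chromosome 19. None of the 15 tested neighbours was past the threshold and lower by edgeR or by DESeq2, against 7.78% of all genes tested by edgeR. At an unadjusted edgeR p below 0.05 none was lower and 6 were higher. The share of all genes at that unadjusted p was not taken, so the 6 are given as a count only. Around Oasl1 and Oasl2, 8 of 12 neighbours were tested and lay between −0.08 and 0.35 (Tchp, Git2, Ankrd13a, 1500011B03Rik, 2210016L21Rik, Sppl3, Acads and Unc119b), with no adjusted p below 0.05 by edgeR or DESeq2 and 2 higher at an unadjusted edgeR p below 0.05.

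Around the Oas genes 4 of 9 neighbours were tested, all on the Oas2 side of the cluster. Their log2 fold changes were −0.07 for Slc8b1, −0.04 for Tpcn1, 0.45 for Rita1 (edgeR adjusted p = 0.0489) and 0.46 for Ddx54 (edgeR adjusted p = 0.00306). Beside the Ifit genes, Pank1, which makes coenzyme A precursors, rose from 48, 51 and 42 counts to 123, 88 and 87 counts (log2 fold change 1.003 with SE 0.18, edgeR adjusted p = 0.00236). This call sits on the fold limit and was lost without lone replicate 1 (0.99), lone replicate 3 (0.96) or cocultured replicate 1 (0.84), and by limma on log2(FPKM + 1) (0.54). Ch25h, which makes 25-hydroxycholesterol, had 0.44 (edgeR adjusted p = 0.0136) and the lysosomal lipase Lipa −0.07. Within 100 kb, none of the 6 tested neighbours (4 at the Oasl and 2 at the Ifit cluster) was past the threshold. No neighbour of the Oas cluster was tested at that distance. Within 500 kb, 1 tested gene in the Oas region (Trafd1, −1.44) and 1 in the Ifit region (Acta2, −1.12) were past the threshold and lower, and both were named after their values were seen. At an edgeR adjusted p below 0.05 without the fold limit, 2 genes were lower in each region. Higher at that limit were 2 in the Oasl, 2 in the Oas and 3 in the Ifit region.

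**Figure D4:**
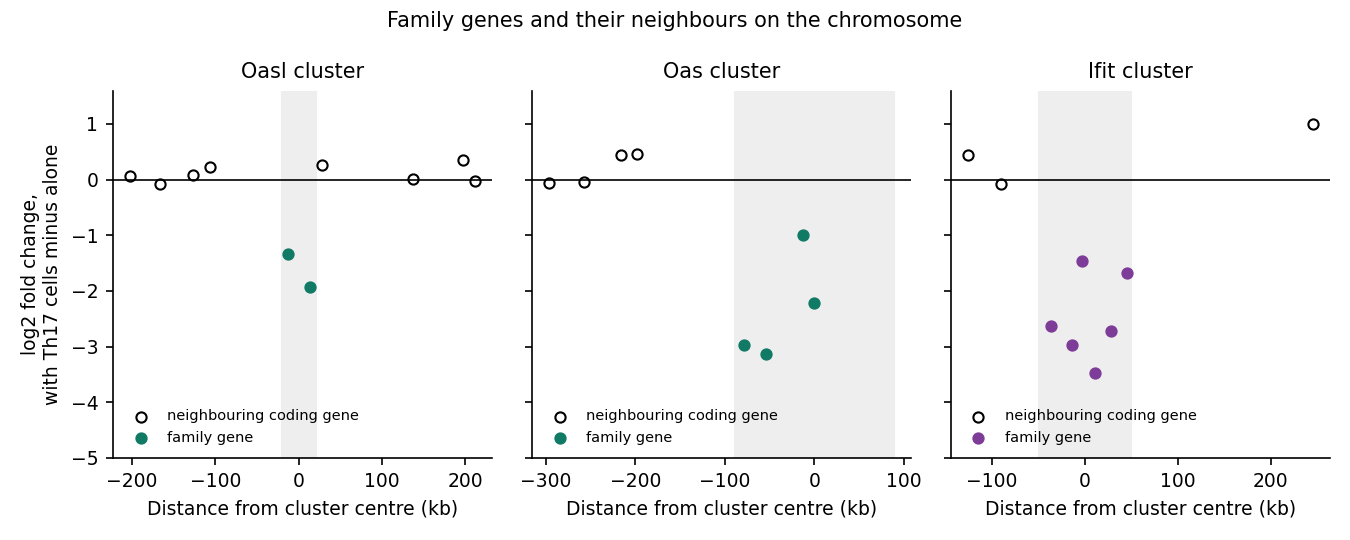
Log2 fold change (with Th17 cells minus alone) against distance from the centre of each cluster in kb, for tested family genes (filled) and tested coding neighbours within 200 kb (open); grey marks the cluster. Family genes lie at −0.99 or lower and neighbours between −0.08 and 1.003.

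Of 5 further genes of the Oas and double-stranded RNA pathway, 1 was past the threshold and lower, and the median log2 fold change was −0.19. Abce1, a factor of ribosome recycling, was at 0.35 (edgeR adjusted p = 0.00208) and Pde12, a phosphodiesterase that degrades the oligoadenylates, at 0.56 (edgeR adjusted p = 0.000415), both under the fold limit. Akap7 was at −0.19 (edgeR adjusted p = 0.399).

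Eif2ak2, the kinase PKR that halts translation on double-stranded RNA, fell from 4714, 4483 and 4058 counts to 2155, 1997 and 2034 (log2 fold change −1.17 with SE 0.056, edgeR adjusted p = 5.05e-07). Adar, which edits double-stranded RNA, was at −0.73 (edgeR adjusted p = 0.00160). Among 7 genes for RNA cap methylation, translation initiation and antiviral signalling, listed as partners of the Ifit proteins, none was past the threshold by edgeR or DESeq2, and the median was −0.01. The cap methyltransferase Cmtr1 was at −0.59 and the kinase Tbk1 at −0.53, while Mavs was at 0.77 and the cap methyltransferase Rnmt at 0.34, each with an edgeR adjusted p below 0.05, which made 2 lower and 2 higher, as at an unadjusted p below 0.05. The initiation factor subunits Eif3c (−0.01) and Eif3e (0.01) and the methyltransferase Cmtr2 (−0.35) did not pass at 0.05.

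Ligands upstream of both families were at or near 0. None of 14 interferon genes had enough counts to test, and 10 were at 0 counts in all 6 libraries, including Ifng. The type I interferon Ifnb1 had 4, 6 and 4 counts alone and 0, 4 and 3 with Th17 cells. Ifna4 had 2, 5 and 0 counts alone and 0 in each cocultured library, and Ifna5 and Ifnab had at most 2 counts in any library. Summed over the list, the level was at most 1.03 CPM in lone and 0.314 CPM in cocultured libraries, so a difference was not detectable at this depth.

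Of 15 genes of interferon receptors and signalling, 4 were past the threshold and lower, 1 was past it and higher, and the median was −0.11. The receptor chain Ifnar2 was at −0.74 (edgeR adjusted p = 1.12e-05) and Ifngr2 at 0.99 (edgeR adjusted p = 1.86e-06), both within the fold limit. Ifngr2 was past the threshold without lone replicate 2 (1.02), with library size only (1.05) and by limma on log2(FPKM + 1) (1.03). Ifnar1 (−0.01), Ifngr1 (−0.06) and the kinases Jak1 (−0.03), Jak2 (−0.11) and Tyk2 (0.23) did not pass at 0.05.

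The transcription factor Stat2 fell from 5719, 5725 and 5252 counts to 2622, 2351 and 2155 (log2 fold change −1.30 with SE 0.072, edgeR adjusted p = 1.17e-06). Irf9, the DNA-binding part of its complex, was at −0.59 (edgeR adjusted p = 0.000372), under the fold limit. The transcription factors Irf7 (−1.92) and Irf1 (−1.54) fell, and Irf3 was at −0.25 (edgeR adjusted p = 0.184). Among the negative regulators, Usp18 fell (−1.63), Socs1 was at 0.70 (edgeR adjusted p = 0.00663) and Socs3 rose from 434, 459 and 416 counts to 2388, 2435 and 3134 (log2 fold change 2.53 with SE 0.11, edgeR adjusted p = 3.17e-07).

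The sensors of foreign nucleic acid were lower. All 7 had an adjusted p below 0.05 with a lower level, 5 were also past the fold limit, and the median was −1.27. Tlr3, the endosomal receptor for double-stranded RNA, had the lowest value (−2.33), and Dhx58 (−1.97), Ifih1 (−1.66), Zbp1 (−1.27) and the DNA sensor Mb21d1 (−1.10) also fell. Ddx58, the RIG-I receptor, was at −0.9993, just short of a 2-fold difference, and was past it without lone replicate 1 (−1.02), lone replicate 2 (−1.005), cocultured replicate 1 (−1.04) or cocultured replicate 2 (−1.03). The call of Mb21d1 was lost without cocultured replicate 3 (−0.97) and by limma on log2(FPKM + 1) (−0.65). The adaptor Tmem173 was at −0.37.

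Of 26 other interferon-induced genes, 24 were past the threshold and lower and 1 was past it and higher, with a median of −1.70. The lowest were Mx1 (−5.48), a GTPase that blocks viruses, Ifi44l (−5.12) and the chemokine Cxcl10 (−4.47), all lower than any Oas or Ifit member. At the other end Parp9 was at −1.02, a call lost without lone replicate 2 (−0.99) or cocultured replicate 1 (−0.98), with library size only (−0.95) and by limma on log2(FPKM + 1) (−0.92). Trim25 was at −0.84, and Ifi27 rose from 219, 222 and 223 counts to 697, 735 and 1058 (log2 fold change 1.83 with SE 0.16, edgeR adjusted p = 2.49e-05). No list was compared with the members by a test.

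**Figure D5:**
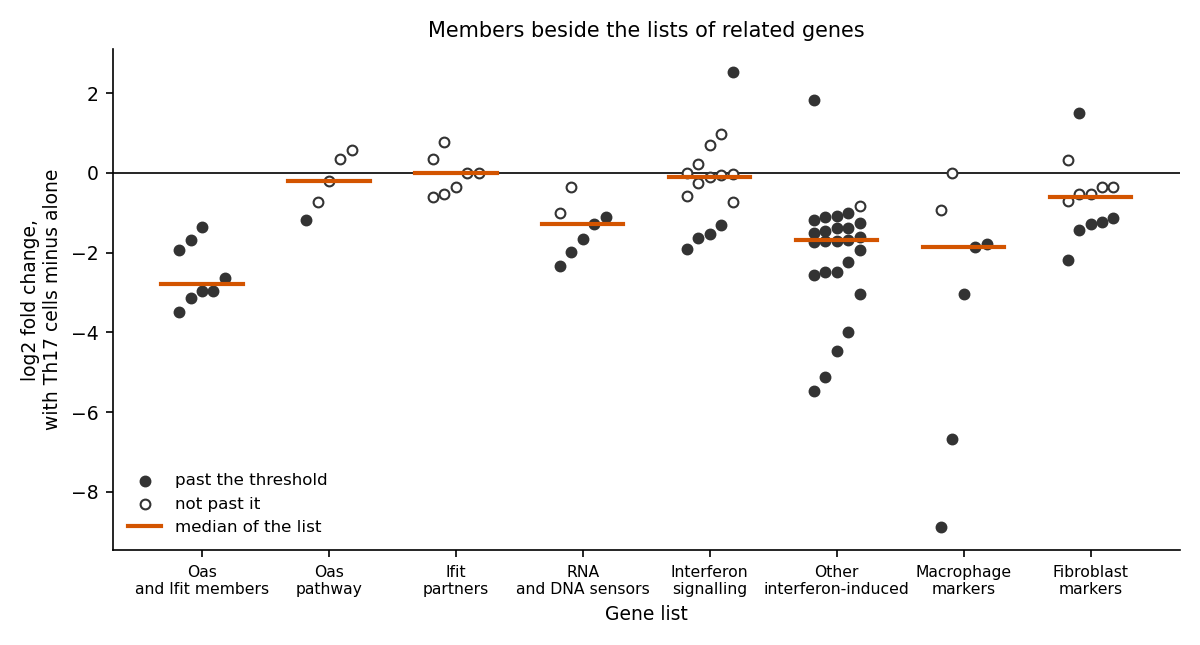
Log2 fold change (with Th17 cells minus alone) of each tested gene by list; filled dots are past the threshold, open dots are not, and orange bars are list medians. The member median is −2.80, the Oas pathway median is −0.19, the Ifit partner median is −0.01, and other interferon-induced genes have a median of −1.70.

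Several macrophage markers were lower with Th17 cells. Of 16 markers 7 were tested, and 5 of these were past the threshold and lower, against 7.78% of all genes tested. Adgre1, Ptprc and Aif1 reached 10 counts only in lone libraries, so they entered the test through the group where they were high. With at least 10 counts required in every library, 2 markers were past the threshold and lower. The summed level of the 16 markers was 60.5 to 64.9 CPM alone and 20.2 to 21.5 CPM with Th17 cells. Adgre1 (the F4/80 antigen) had 71, 47 and 55 counts alone and 0 in each cocultured library, and Ptprc had 14, 12 and 11 alone and 0 with Th17 cells. Cd14 was at 127 to 151 counts alone and 129 to 170 with Th17 cells. Lyz2 (337 to 358 counts alone, 38 to 49 with Th17 cells), Csf1r (65 to 81 and 19 to 30) and Aif1 (13 to 21 and 3 to 7) fell but kept counts in every cocultured library. Cd68 (90 to 106 and 50 to 58) was lower without passing the fold limit (log2 fold change −0.93). Tyrobp, Fcer1g, C1qa, C1qb and C1qc, defining macrophage genes, were near the floor already, with at most 11 counts alone and 0 in each cocultured library. The part of macrophages in the decrease of the members was not tested. Of the 12 fibroblast markers, 5 were past the threshold and lower and 1, Dcn, was past it and higher. At an edgeR adjusted p below 0.05 without the fold limit, 10 were lower and 1 was higher. Of 15 T cell markers 2 were tested and 1, Lck, was past it and lower. The call of Lck was lost without lone replicate 2 or cocultured replicate 3, with library size only and by limma on log2(FPKM + 1) (0 past it in each). Of 7 endothelial markers 2 were tested. The receptor Kdr fell, from 65, 74 and 68 counts to 2, 1 and 2. Pecam1 did not, with 20, 8 and 18 counts alone and 19, 18 and 15 with Th17 cells (log2 fold change 0.10, edgeR adjusted p = 0.862). The summed 7 endothelial markers were at 6.79 to 8.03 CPM alone and 2.05 to 3.06 CPM with Th17 cells. Kdr alone made up most of this sum in lone fibroblasts (mean 5.55 CPM). The summed 7 epithelial markers were at 0.837 to 2.76 CPM in all libraries.

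The genes whose profile over the 6 libraries was nearest to the median profile of the 8 members were Uba7, Gbp3, Hap1, F830016B08Rik and Mdk. Likeness was the Euclidean distance between log2 CPM profiles centred on the lone group, among genes averaging 100 counts or more in the group with the higher level. The median profile of the members lay at −2.61, −2.95 and −2.75 in the 3 cocultured libraries. Uba7, the activating enzyme that attaches Isg15 to proteins, was the nearest at a distance of 0.121, with 1781, 1713 and 1591 counts alone and 295, 222 and 286 with Th17 cells. Gbp3, an interferon-induced GTPase, followed at 0.177, with 6281, 6155 and 5338 counts alone and 1048, 868 and 912 with Th17 cells. Hap1 lay at 0.199, F830016B08Rik at 0.218 and the growth factor Mdk at 0.279, with log2 fold changes of −2.80, −2.74 and −2.98.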

How the data were processed

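The authors prepared libraries with a VAHTS kit, cleaned reads using Seqtk, mapped them to mm10 by HISAT2 2.0.4, quantified genes with StringTie 1.3.3b and deposited whole-number counts per gene and library. Beside each count the authors deposited FPKM, scaled to gene length and library total. Strand use and treatment of reads that fit several genes were not given in the sources used here. Groups came from sample titles. Intervals and floors cover counting error only.

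The counts were fitted with edgeR 4.0.16 in R 4.3.3 (filterByExpr with a minimum count of 10, TMM, glmQLFit and glmQLFTest, Benjamini-Hochberg adjustment), and the threshold of the study's methods was used (adjusted p below 0.05, more than 2-fold). All 6 libraries entered the fit, and the script was tested on simulated data. Standard errors of log2 fold changes were taken as the size over the square root of F. Alternatives were DESeq2 1.42.0, limma 3.58.1 on log2(FPKM + 1), other scalings and filters, the replicate block, leaving out each library, and summed paralog counts. Shared windows, overlaps and neighbours were taken from GENCODE M21 (GRCm38, the same build), and promoters from RefSeq. The search for shared windows was chosen after seeing the data.

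The members, gene lists and tests were chosen with earlier results of these data known. Genes named are the members, the genes of the 7 lists of relatives, pathway, partners, ligands, signalling and sensors, the 3 lowest and 3 highest of the other interferon-induced genes, coding neighbours within 200 kb of a cluster, and the 5 nearest profiles. Single cell type markers, Trafd1 and Acta2 were named outside this rule, after their values were seen. Some genes of these lists are not reported here.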

Additional observations from a re-analysis of the deposited data

How the results depend on the processing

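All 8 tested members stayed past the threshold and lower under each of 14 alternatives, with adjusted p of at most 0.000588 over the fits by edgeR, DESeq2 and limma. The members' median log2 fold change lay between −2.85 and −2.70 when 1 library was left out. It was −2.50 by limma on log2(FPKM + 1), a scale that understates the change of low genes, and −2.63 with Ifit3 and Ifit3b summed, where 7 genes remained. Genes past the threshold numbered 1524, 1469 by DESeq2, 626 by limma on log2(FPKM + 1) and 1493 to 1546 when 1 library was left out. With library size only, 61.9% of the calls were lower, against 66.8%, and the median of all genes moved by 0.063. Of 81 tested list genes and neighbours, 8 changed their call in an alternative, all of them near the fold limit or, for Ifit1bl1, at low counts. Among markers, 5 macrophage markers were past the threshold and lower, 8 without a filter on low counts and 2 with at least 10 counts in every library or by limma. No pairing by replicate number was detectable, since deviations of same-numbered libraries correlated at 0.0157, −0.0256 and −0.0036. Whether same-numbered libraries shared an animal or a preparation was not given, and these values cannot show it. With the replicate block, 8 members and 1495 genes were past the threshold, the members' median was −2.80, and Ddx58 (−1.002) gained and Pank1 (0.99) lost its call. Summing Oas1a and Oas1g gave 0 counts and no value. At this depth, levels under 0.223 to 0.254 CPM could not be told from 0, which limits Oas1a, Oas1g and most of the interferon genes. Ifnb1 lay just above this floor in lone fibroblasts (4, 6 and 4 counts, mean 0.374 CPM).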
